A study of Mus musculus with 18 samples.

Results

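The nuclear subunits of oxidative phosphorylation were taken as the protein-coding genes of GENCODE M21 (mouse build GRCm38) whose symbols begin with the names of the subunit families: Nduf with a, b, c, s or v and a number, Sdha to Sdhd, Uqcr, Cox4 to Cox8, and Atp5. The rule used names and not values. It found 84 genes among the 47729 of the count tables, with 37 in complex I, 4 in complex II, 8 in complex III, 18 in complex IV and 17 in complex V. Of these, 78 passed the filter on low counts (36, 4, 8, 13 and 17 by complex). The values are RNA-seq read counts from epithelial cells sorted out of the ileum of female mice, with 6 libraries each from virgin, pregnant and pseudopregnant animals. A pseudopregnant mouse has a hormonal state like that of early pregnancy but carries no fetuses. All animals were on the same pair of chows (RM3 for breeding, RM1 afterwards). The labels give no strain, age, day of pregnancy, way of inducing pseudopregnancy, sorting marker or batch, and do not say that each library is 1 animal, so p-values measure the spread between these libraries.

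Oxidative phosphorylation takes place in the inner mitochondrial membrane. Complex I (NADH dehydrogenase), complex II (succinate dehydrogenase), complex III (the cytochrome bc1 complex) and complex IV (cytochrome c oxidase) pass electrons to oxygen, and complex V (ATP synthase) uses the proton gradient that complexes I, III and IV build to make ATP. Most subunits are nuclear genes, many with very short messenger RNAs. A core set in every complex except complex II is encoded by mitochondrial DNA. Absorptive cells of the villus rely on this ATP for transport across the epithelium.

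Library totals ran from 24.9 to 37.3 M counts (median 31.5). Epithelial markers (Epcam, Krt8, Krt18, Krt19, Cdh1, Vil1) summed to between 10330 and 20860 CPM (counts per 1e6, scaled between libraries by the trimmed mean of M values). A list of 10 stromal and endothelial markers summed to between 0.480 and 1.79 CPM, 5 red blood cell genes to at most 1.45 CPM, and 10 leukocyte markers to between 11.99 and 40.5 CPM, with no leukocyte or stromal marker at 0 in all libraries. In bulk libraries such as these, fewer cells of a type and less RNA per cell cannot be told apart.

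The 84 genes together took a modest share of each library that varied more between libraries of a group than between groups. In virgin libraries the share was lowest at 1.78%, had a median of 2.08% and was highest at 2.52% of all counts. In pregnant libraries it was 1.58%, 1.82% and 2.60%. In pseudopregnant libraries it was 1.38%, 1.71% and 2.27%. The 3 groups overlapped over most of their ranges. Complex V took the largest share, with a mean over the 18 libraries of 0.790% ± 0.120 (SD, n = 18), followed by complex I (0.434% ± 0.100), complex IV (0.407% ± 0.113), complex III (0.215% ± 0.040) and complex II (0.127% ± 0.016).

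**Figure D1:**
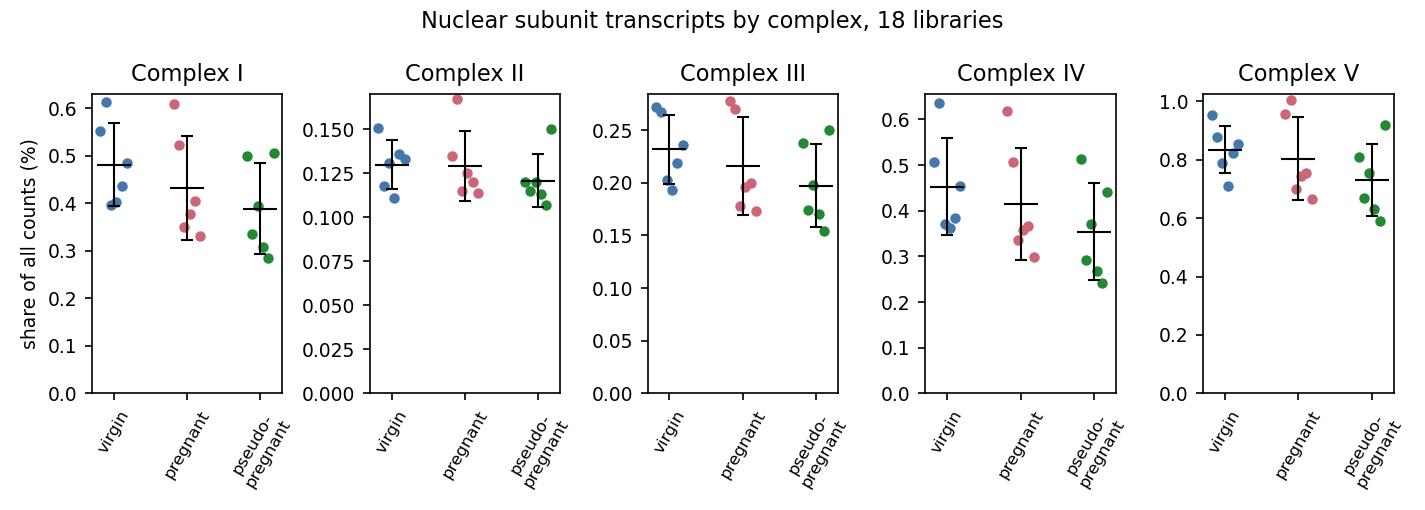
Share of all counts (%) taken by the nuclear subunits of each complex. Each point is 1 library, the bar is the group mean and the whisker 1 SD (n = 6). Complex V lies between 0.592% and 1.01% and complex II between 0.107% and 0.167%, and the groups overlap in every panel.

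Levels per kilobase of the principal transcript (the transcript that APPRIS marks as the main protein product) showed which subunits were most abundant per length. Complex IV had the highest median, at 454.5 CPM per kilobase over its 13 tested genes, and complex I the lowest, at 126 over 36. Complexes V, III and II lay between, at 388, 287 and 192. Cox4i1, the largest nuclear subunit of complex IV, was highest of all at 1165, ahead of Atp5g3 at 1040 and Atp5b at 997. The lowest of the 78 was Atp5s, a factor that carries the family's name but is not part of the ATP synthase core, at 3.92.

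The 6 genes that failed the filter are isoforms known from other tissues or conditions. Cox7b2, Cox8b (the muscle isoform of Cox8) and Cox8c had 0 counts in all 18 libraries. Cox4i2, the lung isoform induced by low oxygen, had between 0 and 2 counts per library, Ndufa4l2 between 0 and 2, and Cox6a2, the heart and muscle isoform, between 0 and 4. Against totals of 24.9 M or more, a count of 0 allows a level of up to between 0.0805 and 0.12 CPM, depending on the library (3 counts of the total, counting error only).

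The question of the design is whether pregnancy, or the hormonal state of pseudopregnancy without a conceptus, goes with other transcript levels in the epithelium. No nuclear subunit passed the test in any of the 3 comparisons. In pregnant against virgin libraries, 0 of 78 had an adjusted p under 0.05 (edgeR's quasi-likelihood test, two-sided, Benjamini-Hochberg adjustment over 14675 genes), where 0% of all genes tested did, and 0 of 78 had an unadjusted p under 0.05, where 3.68% of all genes tested did. The groups were separated without overlap for 0 of 78 members, against 0.0681% of all genes. Of the fold changes, 69 of 78 were below 0, against 51.5% of all genes, with a median log2 fold change of -0.09 (all genes -0.01) and a median standard error (SE) of 0.24. Single libraries moved that median between -0.31, without pregnant replicate 1, and 0.02, without virgin replicate 2. Members below 0 then numbered 73 and 32, and they numbered 40 without pregnant replicate 6 (median -0.01). DESeq2 and limma-voom also gave 0 members at either an adjusted or an unadjusted p under 0.05. The shares of all genes by these methods are not given here for any of the 3 comparisons. Their counts therefore carry no reading about the members.

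In pseudopregnant against virgin libraries the fold changes of the members lay further below 0, again within the error of the libraries. The same virgin libraries serve as the reference in both comparisons. The counts were 0 of 78 at an adjusted p under 0.05 (0% of all genes), 0 of 78 at an unadjusted p under 0.05 (9.37% of all genes, edgeR) and 0 of 78 without overlap (0.0681% of all genes). Fold changes below 0 were found for 75 of 78 members and for 49.4% of all genes tested. The median log2 fold change was -0.33 (all genes 0.00). The exceptions above 0 were Ndufs1, Sdha and Uqcrc2. DESeq2 and limma-voom gave 0 members at either p here too. Without pseudopregnant replicate 1, 37 of 78 members had an unadjusted p under 0.05, beside 22.9% of all genes in that fit, and none had an adjusted one. The median was then -0.52, and it was -0.21 without virgin replicate 2 and -0.22 without pseudopregnant replicate 5.

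In pregnant against pseudopregnant libraries, which use the same pregnant and pseudopregnant libraries as the other comparisons, 0 of 78 members had an adjusted p under 0.05 (0% of all genes), 0 of 78 an unadjusted p under 0.05 (2.35% of all genes, edgeR) and 0 of 78 groups without overlap (0.0273% of all genes). Only 6 of 78 fold changes were below 0, against 51.6% of all genes, and the median was 0.23. By DESeq2 and limma-voom the counts were 0 as well. Without pseudopregnant replicate 1, 10 of 78 members had an unadjusted p under 0.05, beside 10.6% of all genes in that fit. The median was then 0.40, and it was 0.06 without pregnant replicate 1 and 0.13 without pseudopregnant replicate 5.

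Complex I takes electrons from NADH. Its 36 tested members had median log2 fold changes of -0.12 in pregnant and -0.34 in pseudopregnant against virgin libraries. Ndufs8, a core subunit that holds iron-sulfur clusters, lay at 85.6, 101 and 160 CPM (lowest, median, highest) in virgin libraries. It lay at 71.8, 84.4 and 148 CPM in pregnant libraries. It lay at 56.6, 77.0 and 123 CPM in pseudopregnant libraries. The pseudopregnant median was below every virgin value, but the ranges overlapped, and the log2 fold change of -0.39 (SE 0.21, adjusted p = 0.515 by edgeR) was the one of smallest p in that comparison.

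Ndufv1, the core subunit that binds NADH and FMN, lay at 169, 189 and 230 CPM in virgin, 149, 176 and 244 CPM in pregnant and 124, 157 and 216 CPM in pseudopregnant libraries. Its highest library was pregnant and its lowest pseudopregnant, with wide overlap. The log2 difference of pregnant from pseudopregnant was 0.21 (SE 0.15, adjusted p = 0.920 by edgeR). Ndufa12, an accessory subunit, had the smallest p of pregnant against virgin libraries, at a log2 fold change of -0.26 (SE 0.15, adjusted p = 0.891 by edgeR). It lay at 61.5, 79.9 and 110 CPM in virgin libraries. It lay at 60.1, 64.2 and 89.96 CPM in pregnant ones, of which 5 of 6 were below the virgin median. Ndufa10, another accessory subunit, had the next smallest p of the complex there, at -0.13 (SE 0.12).

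Ndufa4, named as a complex I subunit but later assigned to complex IV, was the most abundant of the Nduf genes per length, at 478 CPM per kilobase. Its pseudopregnant fold change of -0.32 (SE 0.23) was near the complex I median. Ndufa1, the shortest tested gene by its annotated exons (419 bases), lay between 34.8 and 119 CPM over the 18 libraries, a 3.41-fold range. Ndufb2, an accessory subunit whose principal transcript is annotated at 2413 bases, lay between 17.6 and 64.8 CPM, a 3.68-fold range.

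Ndufs1 is the largest core subunit of complex I and lies at chr1:63143596-63176833. It lay at 94.2, 138.5 and 144 CPM in virgin, 118, 133 and 146 CPM in pregnant and 105, 135 and 150.3 CPM in pseudopregnant libraries. The group medians were close and the log2 fold changes were 0.04 (SE 0.11) in both comparisons with virgin libraries.

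Complex II oxidises succinate and links the citric acid cycle to the chain, and all 4 of its subunits are nuclear. Sdha, the flavoprotein at chr13:74322254-74350280, lay at 302, 457 and 500.0 CPM in virgin, 389.5, 455.5 and 515 CPM in pregnant and 368.5, 458 and 507 CPM in pseudopregnant libraries. The 3 medians were nearly equal. Sdhb, the iron-sulfur subunit, lay at 267, 308 and 388 CPM in virgin, 229, 309 and 468 CPM in pregnant and 171, 264 and 377 CPM in pseudopregnant libraries. Its pregnant libraries held the highest value and its pseudopregnant ones the lowest, and the difference between them, 0.30 on the log2 scale (SE 0.21, adjusted p = 0.920 by edgeR), had the smallest p of that comparison. Against virgin libraries, the membrane anchors Sdhc and Sdhd stood at -0.28 (SE 0.19) and -0.15 (SE 0.15) in pseudopregnancy.

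Complex III passes electrons from ubiquinol to cytochrome c. Uqcrfs1, the Rieske iron-sulfur protein, lay at 268, 307 and 395 CPM in virgin, 233, 284 and 400.0 CPM in pregnant and 170, 256 and 361 CPM in pseudopregnant libraries. Its ranges overlapped, and the pseudopregnant log2 fold change was -0.29 (SE 0.19, adjusted p = 0.520 by edgeR). The small subunits stood lower, with Uqcr10 at -0.44 (SE 0.25) and Uqcrb at -0.31 (SE 0.28). The core proteins differed from each other in value, with Uqcrc1 at -0.18 (SE 0.13) and Uqcrc2, at chr7:120635176-120659524, at 0.10 (SE 0.10). Uqcrc2 lay at 235, 294 and 321 CPM in virgin, 261, 294 and 318 CPM in pregnant and 257, 307 and 357 CPM in pseudopregnant libraries. Its exons share 19.7% of their length with the antisense gene Pdzd9.

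Complex IV reduces oxygen. All 13 tested members had pseudopregnant fold changes below 0, between -0.51 (Cox7a1) and -0.17 (Cox8a). Cox4i1 lay at 739.9, 895.5 and 1527 CPM in virgin, 613, 808 and 1463 CPM in pregnant and 427.5, 692.5 and 1299 CPM in pseudopregnant libraries. The lowest library was pseudopregnant and the highest virgin, and the groups overlapped. Its pseudopregnant log2 fold change was -0.38 (SE 0.27, adjusted p = 0.530 by edgeR). Cox5a stood at -0.34 (SE 0.28), Cox6b1 at -0.37 (SE 0.29) and Cox7c at -0.50 (SE 0.30).

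Several complex IV subunits come as a widely expressed and a tissue-restricted isoform, and 2 restricted ones were present. Cox7a1, the heart and muscle isoform, lay at 65.8, 120.0 and 151 CPM in virgin, 65.6, 95.5 and 200.3 CPM in pregnant and 41.6, 79.7 and 133 CPM in pseudopregnant libraries, and had between 1443 and 4852 counts in every library. Cox7a2, its widely expressed counterpart, lay at 183.5, 209 and 365.5 CPM in virgin libraries. The log2 ratio of Cox7a1 to Cox7a2 was -1.09 ± 0.46 (SD, n = 6) in virgin, -1.02 ± 0.21 in pregnant and -1.31 ± 0.25 among pseudopregnant ones. Its difference of 0.29 between pregnant and pseudopregnant libraries, higher than the pseudopregnant median in 5 of 6, had an exact permutation p of 0.0519 (two-sided, 924 arrangements, adjusted p = 0.651 over 18 ratio tests, the smallest of the 18). The stromal and endothelial marker list, which holds the muscle genes Acta2, Des and Myh11, summed to at most 1.79 CPM in any library. Its part in the Cox7a1 level was not tested.

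Cox6b2, the testis isoform, lay at 2.52, 4.20 and 30.9 CPM in virgin, 2.51, 6.60 and 8.90 CPM in pregnant and 3.06, 6.62 and 14.7 CPM in pseudopregnant libraries. A single library, virgin replicate 3, held the value of 30.9 CPM, and the other 17 were at or below 14.7. The log2 fold change of pregnant from virgin libraries was -0.60 (SE 0.56) with that library and 0.34 without it.

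**Figure D2:**
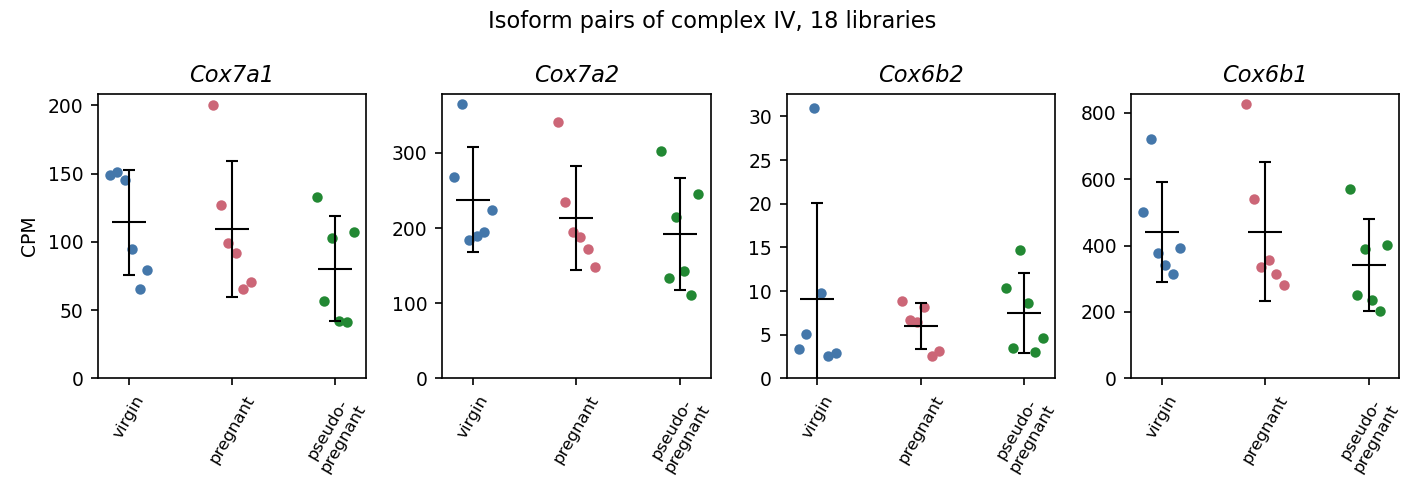
Scaled CPM of the isoform pairs Cox7a1 and Cox7a2, and Cox6b2 and Cox6b1. Points are libraries, bars group means and whiskers 1 SD (n = 6); Cox7a1 lies between 41.6 and 200.3 CPM, and virgin replicate 3 stands apart for Cox6b2 at 30.9 CPM.

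Complex V makes ATP in its catalytic head, which is built of alpha (Atp5a1) and beta (Atp5b) subunits. Atp5b, at chr10:128083273-128090391, lay at 1574, 1965 and 2144 CPM in virgin, 1822, 1899 and 2357 CPM in pregnant and 1590.0, 1817 and 2140.0 CPM in pseudopregnant libraries. Atp5a1 lay at 1091, 1456 and 1552 CPM in virgin, 1312, 1367 and 1711 CPM in pregnant and 1203, 1334 and 1524 CPM in pseudopregnant libraries. For both, highest and lowest libraries differed by no more than 1.57-fold, and the pseudopregnant fold changes were each -0.05 (SE 0.13 and 0.14). Atp5e, the small epsilon subunit of the central stalk, ranged much wider. It lay at 170, 248 and 495 CPM in virgin, 130, 202 and 683 CPM in pregnant and 89.8, 186 and 389 CPM in pseudopregnant libraries, with pregnant replicate 1 highest and pseudopregnant replicate 5 lowest. Its difference of pregnant from pseudopregnant libraries, 0.50 (SE 0.40, adjusted p = 0.920 by edgeR), was the highest of the 78, and it was 0.02 (SE 0.40) against virgin libraries.

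Atp5g1, Atp5g2 and Atp5g3 encode the same c subunit, the ring that turns as protons pass. Their predicted proteins of 136, 146 and 141 residues differ in the imported leader and share the last 78 residues. The coding sequences of that shared part, 234 bases each, are shown over 150 bases because reads of the 3 genes can be told apart only at the differing positions. Capitals mark the 40 positions where the 3 genes are not all the same (GENCODE M21 transcripts, GRCm38, coding strand).
Atp5g1: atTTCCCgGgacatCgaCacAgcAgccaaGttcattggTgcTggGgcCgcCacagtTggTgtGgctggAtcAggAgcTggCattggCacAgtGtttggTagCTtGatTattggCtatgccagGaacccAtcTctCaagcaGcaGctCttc
Atp5g2: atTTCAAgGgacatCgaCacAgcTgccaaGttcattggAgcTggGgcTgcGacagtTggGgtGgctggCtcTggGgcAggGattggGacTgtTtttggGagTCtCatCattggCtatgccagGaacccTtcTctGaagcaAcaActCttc
Atp5g3: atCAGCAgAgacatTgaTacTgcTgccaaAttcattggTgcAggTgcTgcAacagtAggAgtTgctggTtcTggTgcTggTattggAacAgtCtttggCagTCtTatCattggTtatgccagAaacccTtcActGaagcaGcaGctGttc
Over the 234 bases, Atp5g1 and Atp5g2 were 84.6% identical, Atp5g1 and Atp5g3 78.6%, and Atp5g2 and Atp5g3 77.4%. The genes lie at chr11:96068852-96075670, chr15:102662864-102672352 and chr2:73908447-73911326, all on the minus strand.

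Atp5g3 was the main source of c-subunit transcripts, at 1040 CPM per kilobase against 184 for Atp5g2 and 75.4 for Atp5g1. The order of the last 2 depends on the length used, 586 bases for Atp5g2 and 2675.5 for Atp5g1. In counts Atp5g1 was above Atp5g2, with mean log2 ratios of 0.94 in virgin, 1.03 in pregnant and 0.75 among pseudopregnant libraries. Atp5g3 lay at 687, 763 and 1065 CPM in virgin, 488, 766 and 1035 CPM in pregnant and 371, 625 and 935 CPM in pseudopregnant libraries. Atp5g2 lay at 61.0, 119 and 207 CPM in virgin, 73.9, 98.3 and 115 CPM in pregnant and 86.1, 102 and 140.4 CPM in pseudopregnant libraries, and all 6 pregnant libraries were below the virgin median. Its log2 fold change of -0.34 (SE 0.21, adjusted p = 0.891 by edgeR) had the smallest p of complex V in that comparison. Atp5j, coupling factor 6 of the stator stalk, came next at -0.23 (SE 0.16), with all 6 pregnant libraries below the virgin median. Of the ratios among the 3 genes, none passed the test between groups, with exact permutation p-values from 0.184 to 0.714. The ratio of Atp5g2 to Atp5g3, for example, was -2.83 ± 0.46 (SD, n = 6) in virgin, -2.99 ± 0.53 in pregnant and -2.53 ± 0.57 among pseudopregnant ones on the log2 scale.

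The subunits varied together from library to library far more than from group to group. Of the 78, 69 had their lowest value in pseudopregnant replicate 5. Their highest value was in pregnant replicate 1 for 42 and in virgin replicate 2 for 24. The median ratio of highest to lowest library was 3.12. The mean deviation of the members (log2 CPM minus the gene's mean over 18 libraries, averaged over 78 genes) reached 0.71 in pregnant replicate 1, 0.65 in virgin replicate 2 and 0.44 in pseudopregnant replicate 1. Its lowest values were -0.75, -0.54 and -0.51, in pseudopregnant replicates 5, 4 and 2, and the next was -0.40 in pregnant replicate 6. The lowest virgin library stood at -0.10. The extremes on the high side thus came from all 3 groups, and the 3 lowest values from the pseudopregnant group alone.

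This common movement went with how the other genes of each library varied with transcript length. For each library, a length slope was fitted by regressing these deviations on the log2 of annotated exon length, over 5956 well expressed protein-coding genes that were neither members nor mitochondrially encoded. A positive slope means that long transcripts stood relatively high. The slope ranged from -0.27 in virgin replicate 2 to 0.30 in pseudopregnant replicate 5, with group means of -0.08 ± 0.12 (SD, n = 6) in virgin, 0.00 ± 0.14 in pregnant and 0.08 ± 0.20 among pseudopregnant ones. The members' mean deviation correlated with it at Pearson's r = -0.97 and Spearman's rho = -0.90 over the 18 libraries (both are computed from the same libraries), and at r = -0.95 without the 2 libraries of most extreme slope. Within groups r was -0.92 in virgin, -0.94 in pregnant and -0.997 among pseudopregnant ones (6 each). By complex, r was -0.98 for complex I, -0.81 for II, -0.96 for III, -0.93 for IV and -0.97 for V. These values describe the libraries and carry no test.

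**Figure D3:**
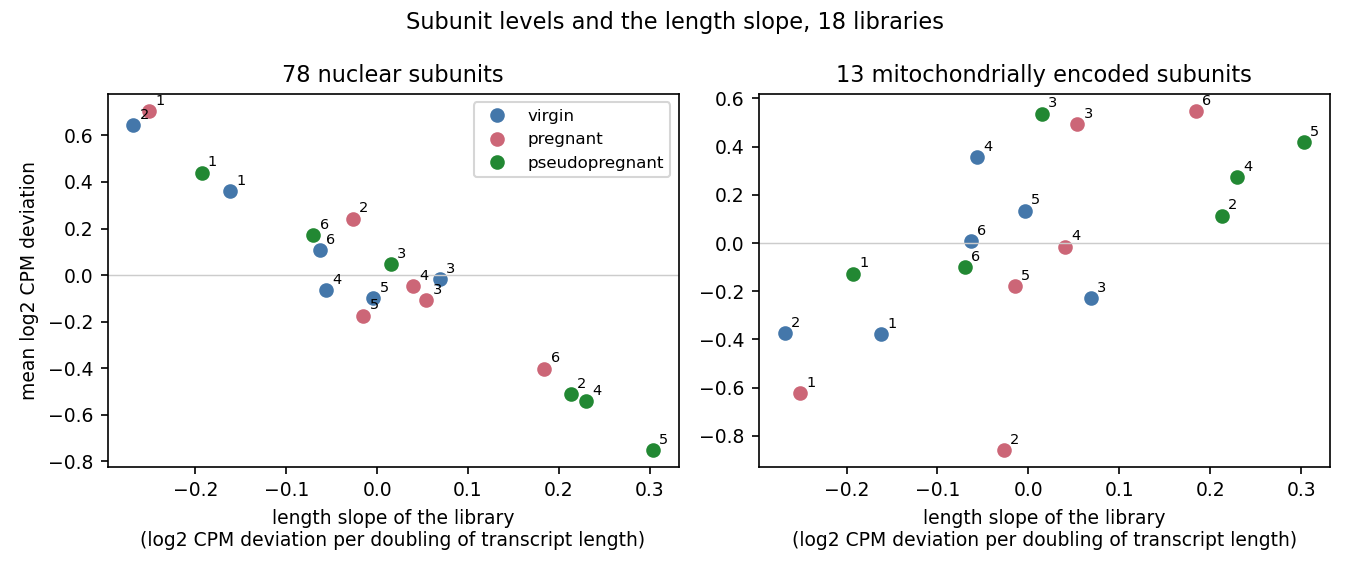
Mean log2 deviation of the 78 nuclear subunits (left) and of the 13 mitochondrially encoded subunits (right) against the length slope of each library; numbers are replicates and colours groups. The nuclear subunits lie close to a falling line (r = -0.97), and the mitochondrially encoded ones scatter around a rising one (r = 0.62).

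Taken one by one, 70 of 78 members (89.7%) correlated with the length slope below -0.8, and 1948 of all 14675 genes tested (13.3%) did. The median r was -0.94 for the members. The members are short, with a median principal transcript of 810 bases, against 2846 bases over the 12258 tested genes that have such a length. Their median annotated exon length was 1631 bases, against 3782 bases for all genes tested. Genes of other functions were set beside the members in bins of length. With principal transcripts under 1000 bases, the median pseudopregnant log2 fold change from virgin was -0.37 for 49 members and -0.33 for 830 other genes. From 1000 to 2000 bases it was -0.27 for 22 members and -0.17 for 2731 others. From 2000 to 4000 bases it was -0.17 for 7 members and 0.02 for 5043 others. No member had a longer principal transcript, and the 3556 other genes of 4000 bases or more had a median of 0.27. For pregnant against virgin libraries the members stood at -0.11, -0.08 and -0.02 in these bins, and the others at -0.18, -0.09 and 0.00. For pregnant against pseudopregnant libraries the members stood at 0.26, 0.15 and 0.08, and the others at 0.14, 0.08 and -0.01. In both comparisons with pseudopregnant libraries the members' medians thus lay further from 0 than those of other genes in the bins under 2000 bases, and from 2000 to 4000 bases they lay to the same side of the others. By annotated exon length the pseudopregnant medians from virgin were -0.41 for 18 members and -0.35 for 327 others under 1000 bases. From 1000 to 2000 bases they were -0.33 for 31 members and -0.23 for 1325 others. From 2000 to 4000 bases they were -0.27 for 19 members and -0.08 for 3753 others. At 4000 bases or more they were -0.32 for 10 members and 0.14 for 6766 others. These differences were not tested.

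**Figure D4:**
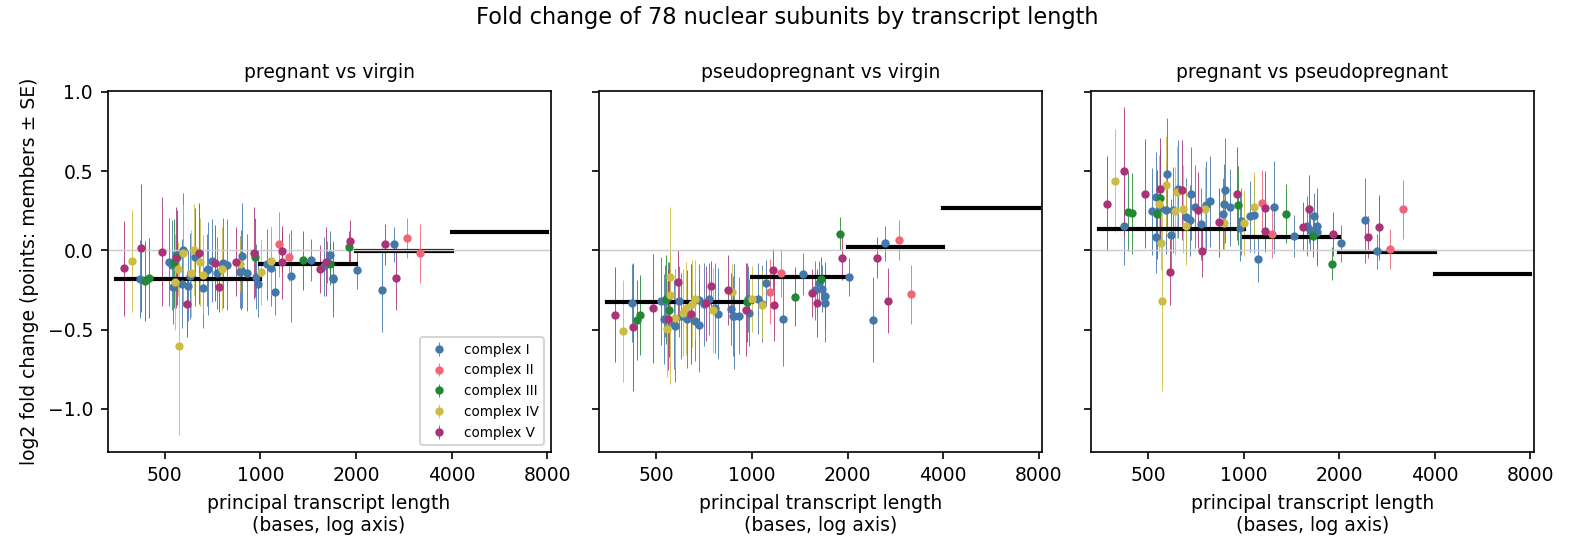
Log2 fold change of each nuclear subunit (points, ± SE, coloured by complex) against the length of its principal transcript on a log axis, for the 3 comparisons. Black bars are medians of other protein-coding genes in bins split at 1000, 2000 and 4000 bases, at -0.33, -0.17, 0.02 and 0.27 in pseudopregnant against virgin libraries.

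With the length slope as a covariate in the model, the median log2 fold change of the members was 0.07 in pregnant against virgin, 0.04 in pseudopregnant against virgin and 0.03 in pregnant against pseudopregnant libraries. The members' median SE went from 0.24 to 0.10 in the pseudopregnant comparison. In that fit only 15 of 78 members were below 0 in pseudopregnancy, and the smallest p was 0.204 (Cox7a2, 0.11, adjusted p = 1.0 by edgeR). Offsets that removed each library's smooth trend with annotated exon length, not principal transcript length, gave medians of 0.00, -0.11 and 0.11. They left 60 of 78 members below 0 in pseudopregnant against virgin libraries, beside 6082 of all 14675 genes tested. By complex, these offsets left pseudopregnant medians of -0.11 for complex I, -0.02 for II, -0.01 for III, -0.11 for IV and -0.16 for V, beside 0.05 for all genes tested. What makes the slope differ between libraries was not tested.

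Not every subunit followed the common movement. Singled out after their values were seen, Ndufs1 (r = 0.55 with the length slope), Sdha (0.52), Uqcrc2 (0.51), Atp5a1 (0.03) and Atp5b (-0.16) departed from the other members of their own complexes. Their principal transcripts are annotated at 1896 to 2900 bases. Against the mean of the other members, r was -0.49 for Ndufs1, -0.43 for Sdha, -0.47 for Uqcrc2, 0.07 for Atp5a1 and 0.26 for Atp5b. Length in the annotation did not separate them fully. Spearman's rho of principal transcript length with r to the length slope was 0.29 over the 78 members and 0.70 over 12249 protein-coding genes. Sdhc (3171 bases, r = -0.90), Atp5g1 (2675.5 bases, the median of its principal transcripts, r = -0.89) and Ndufb2 (2413 bases, r = -0.98) moved with the short members. Cox6b2, at low counts and with its outlying library, was the other gene with r above -0.2, at -0.12.

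**Figure D5:**
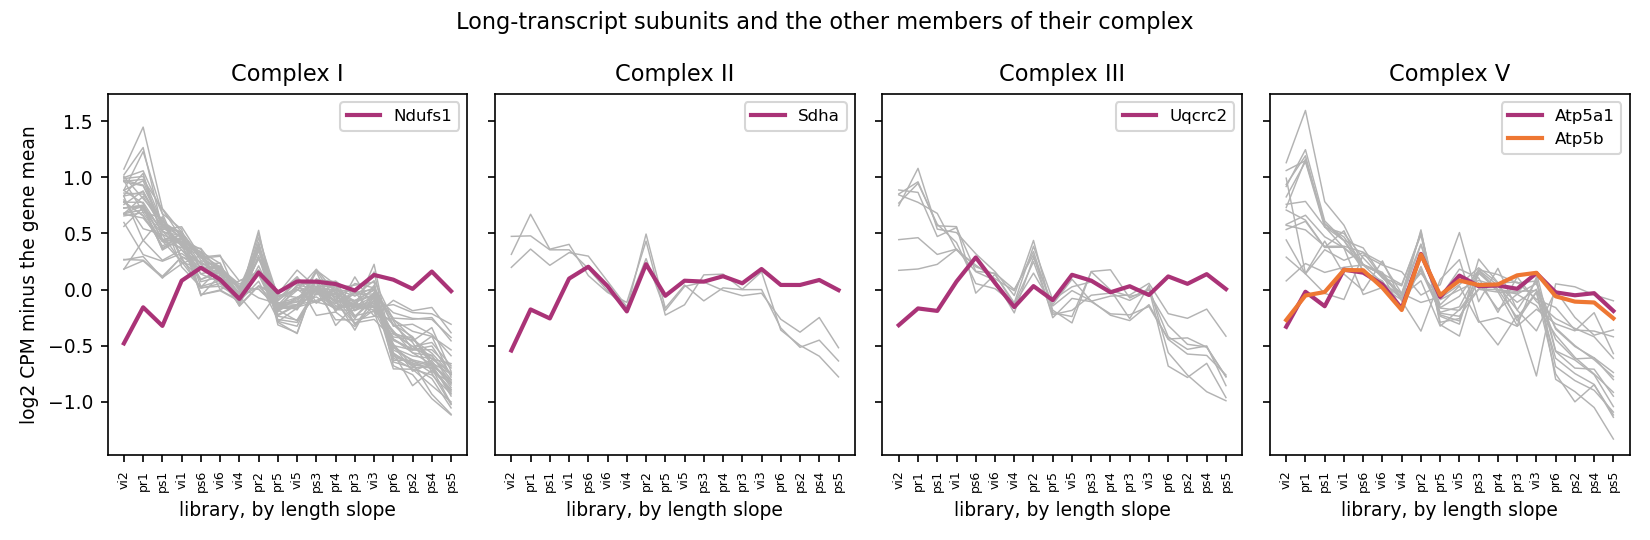
Log2 CPM of each tested subunit of complexes I, II, III and V minus its mean, across the 18 libraries. Libraries are ordered from the lowest to the highest length slope (vi virgin, pr pregnant, ps pseudopregnant, with the replicate number). Grey lines fall from left to right, while Ndufs1, Sdha and Uqcrc2 are lowest at the left end and Atp5a1 and Atp5b stay within a 1.57-fold range.

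The ratio between subunits of a single complex differed widely between libraries of the same group. In pregnant replicate 1, for example, Ndufs1 stood below its own mean and the other 35 tested complex I members above theirs. No stoichiometry of proteins can be read from such ratios of transcripts.

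Genes of the same organelle were examined from lists. The 13 mitochondrially encoded subunits took between 3.44% (pregnant replicate 2) and 8.06% (pseudopregnant replicate 3) of all counts in these poly(A)-selected libraries. Their principal transcripts are short as well, with a median of 784 bases, but their mean deviation rose with the length slope (r = 0.62). Their mean deviation correlated with that of the nuclear subunits at r = -0.69 (rho = -0.70) over 18 libraries, and at -0.77, -0.78 and -0.55 within virgin, pregnant and pseudopregnant libraries. Their median log2 fold change was 0.22 in pseudopregnant and -0.02 in pregnant against virgin libraries, with 10 of 13 and 6 of 13 above 0. None had an adjusted p under 0.05. mt-Nd4l, a complex I subunit, had the highest value in pseudopregnant against virgin libraries at 1.243 (SE 0.57, adjusted p = 0.515 by edgeR), with 4 of 6 libraries above the virgin median.

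Among nuclear lists, all 48 tested proteins of the large mitochondrial ribosomal subunit had fold changes below 0 against virgin libraries in both pregnancy and pseudopregnancy (medians -0.20 and -0.28). Assembly factors of complex I had 15 of 16 and 14 of 16 below 0 (-0.12 and -0.17), and those of complexes II to V 27 of 33 in both (-0.10 and -0.26). The mean deviations of the last list and of the ribosomal list also correlated with the length slope, at -0.97 and -0.94. The citric acid cycle (13 genes, medians 0.03 and -0.06), pyruvate dehydrogenase with its kinases and carriers (12 genes, -0.05 and -0.04) and glycolysis (15 genes, 0.04 and -0.07) had medians near 0. Cytochrome c and its partners outside the symbol rule (Cycs, Cyc1, Ndufab1) stood at -0.20, -0.09 and -0.32 in pseudopregnancy. Their median principal transcript was 2448 bases, and their mean deviation correlated with the length slope at -0.92. Carriers of ADP, ATP and phosphate had medians of 0.03 and -0.12 over 9 genes. No gene of these lists passed the adjusted test in any comparison.

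Regulators of mitochondrial biogenesis had medians of -0.06 and -0.05 over 17 genes, with 11 of 17 below 0 in pregnancy and 11 in pseudopregnancy. Ppargc1a and Esrrg, given next, were above 0 in the comparison named and so went against that majority. Ppargc1a, the coactivator PGC-1alpha, averaged 41.9 CPM in pregnant and 29.9 in virgin libraries (log2 0.49, SE 0.23, adjusted p = 0.891 by edgeR, 5 of 6 above the virgin median). Esrrg, a nuclear receptor that acts on these genes, averaged 4.61 CPM in pseudopregnant and 2.57 in virgin libraries (0.84, SE 0.33, adjusted p = 0.515 by edgeR, 5 of 6). Neither passed the adjusted test.

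The make-up of the sorted cells was followed by markers. A villus-minus-crypt score (absorptive enterocyte markers minus proliferation markers) correlated with the members' mean deviation at r = -0.06 and rho = -0.04 over 18 libraries. Within groups r was -0.33 in virgin, -0.38 in pregnant and 0.50 among pseudopregnant ones. With that score as a covariate the median was -0.32 in pseudopregnant against virgin libraries, near the -0.33 without it. Of 20 absorptive enterocyte markers, 18 had fold changes above 0 in pregnancy (median 0.44) and 15 in pseudopregnancy (0.18), none with an adjusted p under 0.05. Markers of goblet, Paneth and enteroendocrine cells mostly lay below 0, again with no adjusted p under 0.05. Of 8 goblet cell markers 8 and 6 did so (medians -0.34 in pregnancy and -0.29 in pseudopregnancy), of 7 Paneth cell markers 7 and 7 (-0.11 and -0.43), and of 9 enteroendocrine markers 9 and 8 (-0.33 and -0.21). Of 18 proliferation markers 18 were below 0 in pregnancy and 9 in pseudopregnancy (-0.21 and 0.01). Stem cell markers were below 0 for 4 of 6 in pregnancy and 2 of 6 in pseudopregnancy (medians -0.076 and 0.185). Tuft cell markers were so for 4 and 2 of the 5 tested (-0.113 and 0.188). The mean deviation of the 6 epithelial markers correlated with the length slope at -0.92. For the enteroendocrine, Paneth and goblet lists it did so at -0.51, -0.49 and -0.46, and for absorptive and proliferation markers at 0.32 and -0.01. Their part in the subunit values was not tested.

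The promoters of the members were read for motifs of factors known to act on these genes, since the members moved together. RefSeq promoter windows (GRCm38.p6, 250 bases before to 50 after the start) were at hand for 68 of 84 members, with 73 windows. The NRF1 motif GCGCATGC was in 13.7% of member windows and in 2.71% of all 32851 windows, on either strand. The ETS motif CCGGAAG, bound by GABP, was in 21.9% and 8.86%. The YY1 motif AAGATGGC was in 13.7% and 2.75%. The SP1 motif GGGCGG was in 39.7% and 35.7%. A match is only a match of letters. The windows of all genes cover 27025 genes, more than the 14675 that were tested. No share over expressed genes alone was computed. The promoters of Atp5e and Ndufb6 are shown because the part of their windows upstream of the annotated gene holds 2 of the 4 motifs and no annotated exon. Capitals mark the ETS and SP1 letters on either strand.
Atp5e, chr2:174464106-174464351, minus strand: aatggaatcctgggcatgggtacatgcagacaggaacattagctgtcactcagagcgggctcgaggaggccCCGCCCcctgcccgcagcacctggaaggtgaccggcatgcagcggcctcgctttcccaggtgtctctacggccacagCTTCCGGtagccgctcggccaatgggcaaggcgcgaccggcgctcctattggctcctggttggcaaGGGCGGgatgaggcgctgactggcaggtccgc
Ndufb6, chr4:40279422-40279671, minus strand: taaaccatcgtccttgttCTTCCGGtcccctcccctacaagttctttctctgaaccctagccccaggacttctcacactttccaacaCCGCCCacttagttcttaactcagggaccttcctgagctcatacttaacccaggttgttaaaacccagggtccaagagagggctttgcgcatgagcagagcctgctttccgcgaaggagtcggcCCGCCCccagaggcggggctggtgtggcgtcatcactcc
In the Atp5e window, the ETS letters are at bases 149 to 155 of the 246 shown, and the SP1 letters at 72 to 77 and 215 to 220. In the Ndufb6 window the ETS letters are at bases 19 to 25 of the 250 shown. Atp5e had a 7.61-fold range over the libraries and Ndufb6 a 3.19-fold one, and their r with the length slope was -0.94 and -0.98. Other members held as many motifs or more in their full windows, with 3 of the 4 for Sdhb and for Cox6a1. Of members whose windows held none of the 4, Ndufb2 had r = -0.98 and Sdha 0.52. Whether the motifs have a part in the common movement was not tested.

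The counts of some members may include reads of neighbours. Of the 84, 55 share no exon base with another gene. Atp5o shares 47.9% of its exon length with other genes, among them a second annotated gene of the same name. Ndufb6 shares 39.0% with the antisense gene Smim27 and Ndufa13 30.0% with the antisense gene Tssk6. Uqcrc2 shares 19.7% and Ndufb9 19.5%. The strand setting of the counting is not given in the sources used here. Atp5o, a subunit of the stator stalk, had a pseudopregnant log2 fold change of -0.25 (SE 0.22), and Ndufb6 one of -0.45 (SE 0.25, adjusted p = 0.515 by edgeR).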

How the data were processed

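RNA from sorted ileal epithelium was sequenced in 18 libraries after poly(A) selection and directional library preparation, per the labels' protocols. The deposited values are raw counts per gene, 1 table a library, made by the authors with FastQC 0.11.5, HISAT2 2.0.4, featureCounts, Subread 2.0.0 and DESeq2 1.24.0 among the tools named for build GRCm38, per the submitters' processing notes. Annotation release and strand setting: not given in the sources used here. GENCODE M21 gave symbols for 47310 of 47729 genes. No library duplicated another (chi-square over degrees of freedom of at least 35.5 for any pair within a group). The titles gave each library's group and number.

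The filter was filterByExpr. All 18 libraries and 14675 genes entered a quasi-likelihood fit with TMM scaling in edgeR 4.0.16 under R 4.3.3, tested two-sided with Benjamini-Hochberg adjustment and a threshold of 0.05. Ratios of paralogs (log2 of counts plus 0.5) were compared by exact permutation tests. Scores used log2 CPM with a prior count of 2. Groups were compared as lowest, median and highest of TMM-scaled CPM.

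The members, gene lists and alternatives were chosen with earlier results of these data known. Members were named from the 2 of smallest p of each complex and comparison, the shortest and longest, and a set fixed by name. Ndufa13, Ndufb2, Ndufb9, Uqcrc2 and Atp5o were added after their values were seen. The principal-transcript length and 2 leave-outs by length slope were added after seeing these data. Alternatives were DESeq2 1.42.0, limma-voom (limma 3.58.1), other scalings and filters, covariates, the replicate block and each library left out. All 78 tested members entered every count.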

Additional observations from a re-analysis of the deposited data

Results flagged for a closer look

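Of 132 groups of 6 libraries examined for the named members and the shares by complex, 16 held a library standing far from the nearest other value. For independent, normally distributed values, a gap of that size is met by chance in about 1 group in 20. Some such gaps would be met by chance among that many groups. The members moved together, however, so the groups are not independent and that rate gives no number to expect. Pregnant replicate 1 stood apart as the highest of its group for 9 of the named members: Ndufa1 at 97.9 CPM (others up to 65.6), Ndufa12 at 90.0 (71.3), Ndufa2 at 238 (113), Uqcr11 at 229 (130), Uqcrq at 420 (259), Cox7c at 548 (311), Cox8a at 303 (247), Atp5e at 683 (327) and Atp5j2 at 774 (399). Pregnant replicate 2 stood apart for Atp5a1 at 1710 CPM (others up to 1410). Virgin replicate 2 did so for Ndufa1 at 119 CPM (others up to 69.8) and Cox7c at 609 (348), and virgin replicate 3 for Cox6b2 at 30.9 CPM (9.73). In the pseudopregnant group, replicate 1 was apart for Cox8a at 354 CPM (245) and Atp5g2 at 140 (106), and replicate 6 for the share of complex II, 0.15% of counts (others up to 0.12%). Pregnant replicate 1 and virgin replicate 2 had the lowest length slopes of their groups, at -0.25 and -0.27.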

How the results depend on the processing

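No setting gave a member an adjusted p under 0.05; over all settings the named members' adjusted p ran from 0.174 to 1.0. Members at an unadjusted p under 0.05 numbered 0 in each comparison as reported. In pseudopregnant against virgin libraries they numbered 37 without pseudopregnant replicate 1 (22.9% of all genes in the same fit) and 3 without replicate 6 (15.4%). Without virgin replicate 3 they numbered 1 (17.5%), and the range with 1 library left out was 0 to 37. They numbered 14 with the replicate block (13.6%) and 22 without the library of lowest length slope of each group (17.6%). With length-trend offsets they numbered 1 (7.92%), namely Cox8a, which stood above 0 at 0.297. In pregnant against virgin libraries they numbered 2 without virgin replicate 3 (13.2%) and 1 without pregnant replicate 1 (9.34%; range 0 to 2), and 1 without the library of highest slope of each group (10.2%). In pregnant against pseudopregnant libraries they numbered 10 without pseudopregnant replicate 1 (10.6%; range 0 to 10). The replicate numbers were not taken as pairs, since the labels give them no meaning and same-numbered deviations correlated between -0.48 and 0.66. They did so above 0.1 in 3, 4 and 3 of 6 pairs for pregnant and virgin, pseudopregnant and virgin, and pregnant and pseudopregnant libraries. Replicate 3 correlated best with its own number in all 3 (0.66, 0.38 and 0.41), a hint from the data and not the design.

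The members' median ran from -0.31 to 0.07 in pregnant against virgin libraries (0.02 without virgin replicate 2), from -0.52 to 0.04 in pseudopregnant against virgin and from 0.03 to 0.40 in pregnant against pseudopregnant libraries. A change of sign was taken as a reversal only where the value moved by more than its SE; 122, 10 and 51 smaller changes of sign were met in the 3 comparisons. With the length slope as a covariate, pseudopregnant fold changes from virgin became 0.079 for Ndufa1, 0.025 for Ndufa12, 0.096 for Ndufa2, 0.075 for Ndufa4, 0.024 for Sdhb, 0.004 for Sdhc, 0.068 for Sdhd, 0.008 for Uqcr10, 0.037 for Uqcr11, 0.127 for Uqcrb, 0.086 for Uqcrq, 0.042 for Cox4i1, 0.116 for Cox5a, 0.070 for Cox6a1, 0.113 for Cox6b1, 0.113 for Cox7a2, 0.021 for Cox7c, 0.101 for Cox8a, 0.127 for Atp5e, 0.028 for Atp5g1, 0.035 for Atp5g2, 0.004 for Atp5g3 and 0.064 for Atp5j2. That of pregnant from pseudopregnant became -0.023 for Uqcr11. With length-trend offsets, pseudopregnant values became 0.172 for Ndufa1, 0.063 for Ndufa12, -0.113 for Ndufs1, 0.145 for Sdhd, 0.010 for Uqcr10, 0.022 for Uqcr11, 0.010 for Uqcrb, 0.029 for Cox6b1, 0.020 for Cox7a2, 0.297 for Cox8a and 0.086 for Atp5g2. Pregnant values from virgin became 0.205 for Ndufa1, 0.066 for Uqcr10 and 0.207 for Cox8a, and Sdhd became -0.053 from pseudopregnant. Cox6b2 became 0.49 (pregnant) and 0.83 (pseudopregnant) without the libraries of highest slope, and with 1 library left out ranged from -0.80 to 0.34 and from -0.59 to 0.66. Pregnant values from virgin ranged from -0.40 to 0.23 for Ndufa2 and from -0.45 to 0.25 for Atp5e, whose reversals came without pregnant replicate 1. The cause was not tested.

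Depth limits the 6 genes below the filter. Among tested members the values of Cox6b2 spread most between libraries (12.3-fold).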
